A study of Mus musculus with 48 samples.

Results

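The cortex of wild-type (WT) mice that drank MSX-3 was compared with that of WT mice that drank plain water. The rule took the cortex arrays of WT genotype from the sample titles, 5 of MSX-3 mice (WT MSX-3) and 5 of water mice (WT H2O), out of 48 arrays in the series, and left out 1 further array of each group on which the scanner software had not found the spot grid. The mice were male littermates, without the transgenes, of heterozygous APPswe/PS1dE9 (APP/PS1) mice on a C57Bl6/J background. MSX-3 was dissolved in the drinking water at 0.3 g/L, from 3 months of age per the labels and the methods and from 4 months per the series text, until 9 to 10 months. Each array held RNA from the dissected cortex of 1 hemisphere of 1 mouse, taken in the afternoon after perfusion with saline. The drug reached the whole animal, and mice were housed in groups, so the dose taken by each mouse is not known from these data. The comparison asks which cortical transcripts differ after months of blocking the adenosine receptor A2AR in mice without the transgenes.

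In the body MSX-3, a prodrug made to dissolve in water, releases MSX-2, which blocks A2AR. Adenosine builds up around active or stressed cells and acts on 4 receptors. A1 receptors, which are abundant in cortex, inhibit adenylyl cyclase and transmitter release, and A2AR, which is concentrated in striatal projection neurons and sparser in cortical synapses and glia, stimulates adenylyl cyclase. In the brain, adenosine is linked with sleep pressure, transmitter release and the responses of microglia and astrocytes.

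Signals are given as log2 of the background-subtracted intensity minus the 75th percentile of the same array, so a negative value lies under that percentile. A difference is WT MSX-3 minus WT H2O on this log2 scale. Values of single arrays are listed for mice 49, 77, 282, 303 and 304 on MSX-3 and for mice 56, 71, 258, 308 and 318 on H2O, in that order. Levels of different genes are not compared, since probes bind with different strength. In bulk cortex, fewer cells of a type and less RNA per cell cannot be told apart.

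The 10 arrays lay on 5 of the 7 slides, and 1 slide stood apart. Slide 6 held the MSX-3 array of mouse 282 and the H2O arrays of mice 56, 71 and 318, and it was the only slide with WT cortex arrays of both groups in use. Along the first principal component, which took 43.2% of the variance of 37617 probes, these 4 arrays lay between 52.8 and 54.6 and the other 6 between -48.9 and -9.17. A contrast of slide 6 with the other slides called 3462 of 37680 probes (9.19%) at an adjusted p under 0.05 in limma and a fold change of at least 1.5. As 3 of 5 H2O arrays and 1 of 5 MSX-3 arrays were on this slide, slide and treatment are partly confounded. Off slide 6, the MSX-3 arrays in use lay on slides 2 and 7 and the H2O arrays on slides 3 and 5. Among those arrays slide and treatment cannot be told apart. The counts, the list medians and the main genes were therefore also fitted with slide 6 against the other slides as a block, an alternative chosen after seeing the data. This block does not remove differences among the other slides. With each slide as a fixed block, the difference rests on slide 6 alone, mouse 282 against mice 56, 71 and 318. Along the second component, which took 18.9%, the array of mouse 304, the only one in use from slide 7, lay at -71.2 and the others between -14.3 and 39.4. The share of spots well above background ran from 62.7% to 75.5%. It did not differ between the groups beyond their spread, with 68.1% ± 4.78 (SD) in MSX-3 arrays and 70.2% ± 1.96 in H2O arrays (adjusted p = 0.50, exact permutation test, two-sided, over 2 technical measures). The cortical markers Cux2, Tbr1 and Fezf2 were well above background on all 10 arrays, and Rorb was not analysed here.

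**Figure D1:**
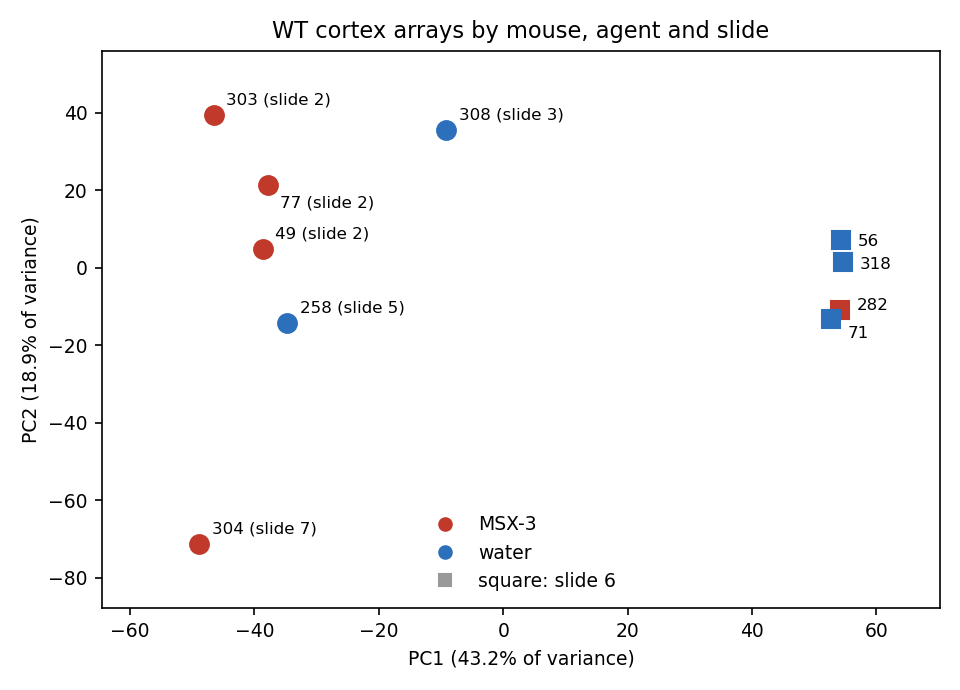
First and second principal components of the 10 WT cortex arrays (37617 probes), in units of log2 signal, red for MSX-3 and blue for H2O, with mouse and slide numbers. The 4 arrays of slide 6 (squares) lie together at 52.8 to 54.6 on the first axis, whatever the treatment, and the other arrays (circles) lie below 0.

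No probe passed the test for MSX-3 against H2O. Of 37680 probes above background, 0 (0%) were called at an adjusted p under 0.05 in limma and a 1.5-fold change, and the smallest adjusted p was 0.508. With an ordinary t statistic the count was also 0. At an unadjusted p under 0.05, 1116 probes (2.96%) were higher and 2139 (5.68%) lower in MSX-3 arrays, and 1629 of these 3255 kept direction and threshold with slide 6 as a block. The excess of lower probes came with probes that have no gene name in the reference. Of 13372 such probes, 10.4% were lower and 3.94% higher, while of 24308 named probes 3.09% were lower and 2.42% higher. Taking 1 probe for each of 16577 named genes, 500 (3.02%) were higher and 414 (2.5%) lower, with a median difference of 0.0045. With slide 6 as a block, 331 genes (2%) were higher and 286 (1.73%) lower. The median 95% interval of a probe reached 0.34 to either side, a 1.27-fold change. In what follows, "higher" and "lower" stand for an unadjusted p under 0.05 in limma, and the adjusted p was 0.569 or more for every gene named. A gene called higher or lower kept that threshold with slide 6 as a block unless the loss is stated beside it.

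Weighting the arrays by their fit was the one alternative that changed the count of 0. With limma's array weights, 3030 probes (8.04%) were called, 2053 higher and 977 lower. The 5 largest weights went to MSX-3 mice 49 and 77 on slide 2 and to H2O mice 56, 71 and 318 on slide 6, so that in this fit the groups and these 2 slides largely coincide and cannot be told apart. Of the 3030 probes, 604 kept their direction at an unadjusted p under 0.05 with slide 6 as a block, and for 102 the groups did not overlap. Of all probes, 6.02% had an unadjusted p under 0.05 in limma with this block, and 0.944% of 37617 had no overlap. The 3030 were chosen by the same contrast on the same arrays, so neither count is support for a difference.

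The transcripts of the drug's target and of the other adenosine receptors did not differ beyond the spread of the mice. Adora2a, which encodes A2AR, measured -2.50, -2.63, -3.20, -2.49 and -2.37 in MSX-3 mice and -2.97, -1.60, -2.88, -3.10 and -2.62 in H2O mice. The groups overlapped, and H2O mouse 71 was the highest of all. The difference had a 95% interval from -0.61 to 0.60, which leaves room for a 1.52-fold increase. Adora1, the A1 receptor, measured 3.87, 3.74, 3.97, 3.82 and 3.62 against 4.03, 3.78, 3.80, 3.74 and 3.99, with a tight and overlapping spread. Its difference of -0.07 had an interval from -0.29 to 0.16. For Adora2b the difference was 0.04 (95% interval -0.45 to 0.53), and for Adora3, which microglia express, 0.06 (-0.16 to 0.28).

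Of 26 measured genes that make, carry or degrade adenosine or receive it, 1 was higher and none lower, with a median of 0.0059. The one was Xdh, xanthine dehydrogenase, at the end of the purine breakdown that starts from adenosine. It measured -3.47, -2.97, -3.04, -3.25 and -3.56 in MSX-3 mice and -4.37, -4.14, -3.97, -4.03 and -3.25 in H2O mice. All H2O mice but 318 lay under the MSX-3 mice, and the difference was 0.69 ± 0.20 (SE), or 0.76 with slide 6 as a block. In the hippocampus of the same mice Xdh differed by 0.67 (unadjusted p = 0.034 in limma), and in the APP/PS1 cortex by -0.34. Entpd2, an ectonucleotidase upstream of adenosine, came next by p with -0.16 (95% interval -0.37 to 0.05). Adk, the kinase that clears adenosine, read -7.64 on the array of H2O mouse 258 and between -1.17 and -0.10 on the other 9, and its difference of 1.46 became 0.07 without that array.

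Among 39 genes of cyclic AMP signalling, the pathway that A2AR drives through Gs and Golf, 1 was higher and 3 lower (median -0.02). Adcy8, a calcium-stimulated adenylyl cyclase, measured -2.46, -2.42, -2.83, -2.31 and -2.82 in MSX-3 mice and -2.30, -2.20, -2.28, -2.08 and -2.03 in H2O mice. The groups did not overlap, although the gap between -2.31 and -2.30 was narrow. The difference was -0.38 ± 0.13 (SE) and -0.44 with slide 6 as a block, and -0.48 for a second probe, and in the APP/PS1 cortex Adcy8 went the other way, with 0.36. Adcy6, an adenylyl cyclase inhibited by calcium, measured -0.16, -0.11, -0.08, -0.19 and -0.11 against 0.23, 0.08, -0.13, 0.49 and 0.40. H2O mouse 258 alone reached into the MSX-3 range. The difference was -0.34 ± 0.12 (SE), -0.32 with the block, and a second Adcy6 probe gave 0.22. The other two genes of the list were Pde1c, a phosphodiesterase, with -0.53, and Crtc1, a coactivator of CREB, with 0.27. Both were named after their values were seen, and neither kept its p with slide 6 as a block. In the 16 measured markers of striatal projection neurons, where A2AR is densest, none was higher or lower (median -0.0065). Penk, the enkephalin precursor of A2AR-bearing striatal neurons, led that list with 0.29 (95% interval -0.09 to 0.68), and Gnal, the subunit of Golf, followed with 0.17 (-0.08 to 0.42).

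Of 16 transcripts, taken from those that the study followed by PCR or as proteins and from others of the same kinds, none was higher or lower, and the median was -0.06. For the inflammation markers, the differences were 0.14 for Gfap of astrocytes (95% interval -0.16 to 0.43), 0.02 for Cd68 of phagocytes (-0.17 to 0.20), 0.03 for Tlr2 (-0.32 to 0.39) and -0.24 for the chemokine Ccl5 (-0.76 to 0.29). The chemokine Ccl3 was well above background on 1 MSX-3 and 3 H2O arrays, and its interval from -1.38 to 0.85 bounds little. Among neuronal and synaptic transcripts, Rbfox3, which encodes NeuN, differed by 0.04 (-0.18 to 0.27), with both of its other probes below 0. Ppp1r9b, the spinophilin gene, differed by 0.13 (-0.04 to 0.30), and Dlg4, which encodes PSD95, by -0.07 (-0.25 to 0.11). Of other release genes, Snap25 differed by -0.05 (-0.28 to 0.18) and Syp by 0.05 (-0.13 to 0.23).

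None of the receptor subunits was higher or lower at its brightest probe. Grin2b, an NMDA receptor subunit, measured 1.23, 1.35, 1.53, 1.34 and 0.82 in MSX-3 mice and 1.82, 1.87, 0.88, 2.01 and 1.94 in H2O mice. The MSX-3 mice lay under 4 of 5 H2O mice, and H2O mouse 258 lay among the lowest. The difference was -0.45 (95% interval -0.93 to 0.03) and -0.29 with slide 6 as a block, and a second probe gave -0.07. Grin2a differed by -0.40 (-0.89 to 0.08), Gria2 by -0.21 (-0.46 to 0.04), Gria1 by -0.10 (-0.34 to 0.13) and Grin1 by -0.07 (-0.39 to 0.24). A further probe of Gria3 gave -0.32 (unadjusted p = 0.030 in limma). Over all 22 glutamate receptor subunits, at the brightest probe of each, the count was 0 higher and 0 lower, and Grm5 differed by -0.35 (-0.72 to 0.02). Their median was -0.06, and it was -0.05 with slide 6 as a block and -0.16 with array weights. With the slide as a random block it was 0.01, and with the slide as a fixed block, which rests on slide 6 alone, -0.03. The list's summed linear signal ran from 96.5 to 100.9 on slide 6 and from 81.7 to 95.7 on the other slides, without overlap.

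**Figure D2:**
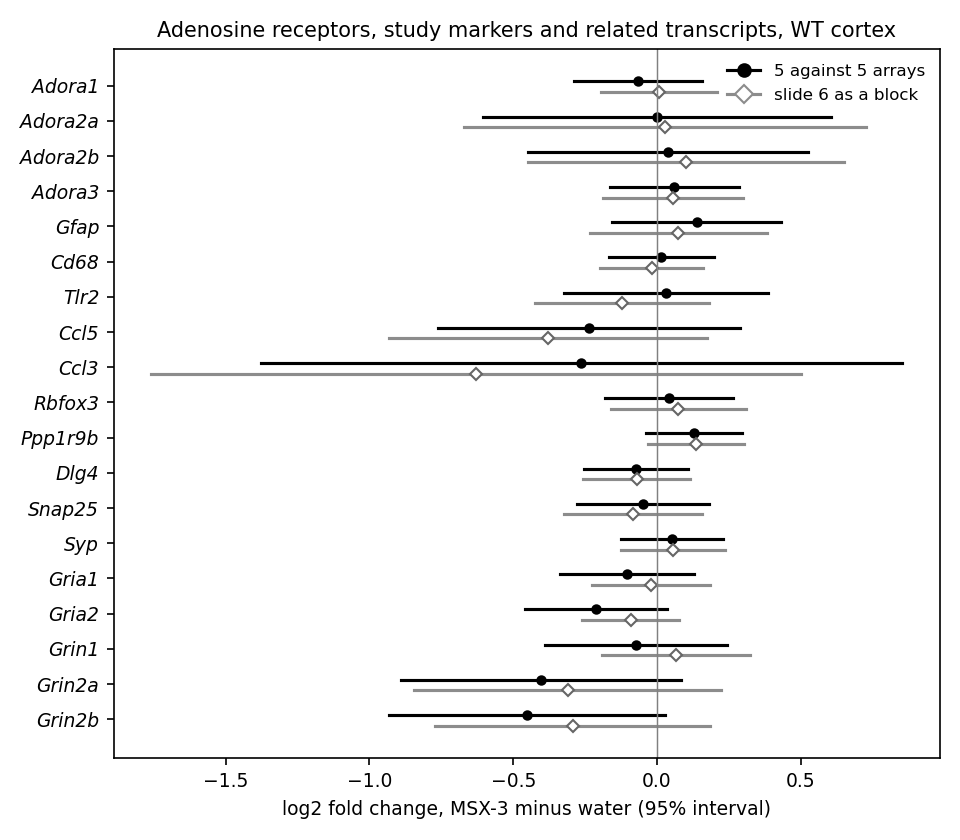
Log2 difference, MSX-3 minus H2O, with its 95% limma interval for the 4 adenosine receptors and 15 of the 16 study markers and related transcripts in WT cortex, in black for 5 against 5 arrays and in gray with slide 6 as a block. Each black interval includes 0, and the widest is that of Ccl3, from -1.38 to 0.85.

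In the circadian clock, activators of the BMAL1 family bind E-boxes and drive the genes of their own repressors, the Per and Cry proteins, so that transcript levels swing over the day. Of 18 measured clock genes, 2 were higher and 2 lower, and the median was 0.05. With slide 6 as a block, 2 were higher and 1 lower, and the median was 0.15. RefSeq promoter windows (GRCm38.p6, 250 bases before to 50 after the transcript start) show which of the clock genes below carry the E-box CACGTG, which reads the same on both strands. It occurs in 5 of the 15 clock genes with a window (33.3%) and in 7.15% of all 32851 windows. Those of Ciart (chr3:95882179-95882478, minus strand), which holds 3, and Cry1 (chr10:85185005-85185304, minus strand), which holds 1, are printed as the pair whose levels lay on opposite sides, with the E-box in capitals. The window of Npas2 holds none, and Per2 was matched to no window.
Ciart: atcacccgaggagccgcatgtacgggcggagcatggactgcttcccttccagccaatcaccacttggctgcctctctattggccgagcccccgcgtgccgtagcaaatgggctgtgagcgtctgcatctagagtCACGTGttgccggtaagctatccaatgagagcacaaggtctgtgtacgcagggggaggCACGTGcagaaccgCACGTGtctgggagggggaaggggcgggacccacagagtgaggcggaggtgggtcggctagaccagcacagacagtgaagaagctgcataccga
Cry1: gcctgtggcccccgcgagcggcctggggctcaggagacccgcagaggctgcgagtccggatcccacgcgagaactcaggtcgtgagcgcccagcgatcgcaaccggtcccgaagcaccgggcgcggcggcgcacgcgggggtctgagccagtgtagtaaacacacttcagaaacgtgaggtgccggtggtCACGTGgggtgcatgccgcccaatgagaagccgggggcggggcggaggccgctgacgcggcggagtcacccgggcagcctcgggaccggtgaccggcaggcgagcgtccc

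Npas2, a partner of BMAL1 in forebrain, measured -3.71, -3.94, -3.37, -4.05 and -3.60 in MSX-3 mice and -3.21, -2.97, -3.26, -3.48 and -3.28 in H2O mice. The groups overlapped only through MSX-3 mouse 282 and H2O mouse 308. The difference was -0.50 ± 0.14 (SE), and -0.37 with slide 6 as a block. Per2, a repressor of the loop, measured 1.02, 0.99, 0.68, 1.18 and 1.60 in MSX-3 mice and 0.67, 0.54, 0.48, 0.55 and 0.94 in H2O mice. MSX-3 mouse 282 lay in the H2O range and mouse 304 was the highest. The difference was 0.46 ± 0.16 (SE), 0.43 with the block, and -0.03 on slide 6 against 0.68 off it. A second Per2 probe gave 0.02 with an SE of 0.40.

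The other clock genes at this threshold, named after their values were seen, were Ciart and Cry1. Ciart, a repressor of the BMAL1 complex, measured -1.44, -0.29, -1.62, -0.55 and -1.35 against -1.35, -2.39, -1.66, -1.58 and -1.77. MSX-3 mice 77 and 303 stood clear of all H2O mice, the other 3 did not. The difference was 0.70 ± 0.28 (SE), and 0.20 for a second probe, and with the block it was 0.54 and lost its threshold. Cry1 measured -2.81, -2.97, -3.26, -2.97 and -3.23 against -2.54, -2.84, -3.09, -2.51 and -2.68, with H2O mice 71 and 258 in the range of the MSX-3 mice, and differed by -0.32 ± 0.14 (SE), with 0.68 for its other probe, and missed the threshold with the block. Dbp, a clock output gene, differed by 0.28 without and 0.54 (unadjusted p = 0.029 in limma) with the block, so that Per2 and Dbp were the higher pair there. Arntl, which encodes BMAL1, differed by -0.08 (95% interval -0.55 to 0.40) at its brightest probe and by -0.40 (unadjusted p = 0.018 in limma) and -0.23 at the others. Per1 differed by 0.24 (-0.26 to 0.73). In the hippocampus of the same mice 2 clock genes were higher and none lower, where 1.89% of all genes tested were higher and 2.39% lower. In the APP/PS1 cortex, with 3.77% of all genes higher and 1.54% lower, no clock gene was higher or lower. The hour of death of each mouse was not among the labels.

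Interferon-response genes are switched on by STAT and IRF factors, which bind the interferon-stimulated response element (ISRE). Of 17 measured, 4 were higher and 1 lower, and the median was 0.27. With slide 6 as a block the counts were again 4 and 1, with a median of 0.26. The median was 0.10 with normexp background correction, 0.16 with array weights and 0.16 without H2O mouse 258. The ISRE core, searched as GAAA, any 2 bases and GAAA on either strand with overlapping matches counted, occurs in 9 of the 14 genes with a RefSeq window (64.3%) and in 3.44% of all windows. The windows of Ifit1 (chr19:34640639-34640938, plus strand) and Oas1a (chr5:120907476-120907775, minus strand), each with 2 matches, are printed because both genes were among the higher ones, with the matches in capitals. In Oas1a the matches overlap. The windows of Irf7 and Oasl2 hold none of these letters.
Ifit1: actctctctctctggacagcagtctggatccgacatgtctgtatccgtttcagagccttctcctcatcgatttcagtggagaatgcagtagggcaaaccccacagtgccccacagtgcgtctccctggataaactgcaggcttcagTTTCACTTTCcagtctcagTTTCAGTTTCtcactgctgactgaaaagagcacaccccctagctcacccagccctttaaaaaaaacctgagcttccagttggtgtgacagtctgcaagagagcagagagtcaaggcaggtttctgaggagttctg
Oas1a: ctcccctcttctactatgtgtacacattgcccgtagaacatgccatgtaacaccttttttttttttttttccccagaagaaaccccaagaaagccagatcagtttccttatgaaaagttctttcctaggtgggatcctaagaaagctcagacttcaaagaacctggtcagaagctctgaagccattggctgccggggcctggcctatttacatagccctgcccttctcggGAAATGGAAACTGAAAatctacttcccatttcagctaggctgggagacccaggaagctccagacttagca

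Ifit1, an antiviral RNA-binding protein, measured -3.93, -3.59, -3.91, -3.71 and -3.60 in MSX-3 mice and -3.90, -4.39, -4.17, -4.10 and -3.95 in H2O mice. MSX-3 mice 49 and 282 overlapped the highest H2O mouse. The difference was 0.36 ± 0.12 (SE), and 0.34 with slide 6 as a block. Oasl2 measured -2.83, -2.70, -2.49, -2.12 and -2.71 against -2.92, -3.14, -3.34, -2.92 and -2.75, with MSX-3 mouse 49 and H2O mouse 318 overlapping, and differed by 0.45 ± 0.16 (SE), 0.51 with the block. Oas1a, an RNA sensor of a multigene family whose members can share probe sequence, differed by 0.44 ± 0.17 (SE), 0.48 with the block. Irf7, the factor that amplifies type I interferon, measured -0.69, -0.72, -0.16, 0.02 and -0.65 against -0.67, -0.98, -1.20, -0.64 and -0.76. Mice 282 and 303 on MSX-3 stood clear and the other 3 lay in the H2O range. The difference was 0.41 ± 0.18 (SE), 0.49 with the block. Oasl2, Oas1a and Irf7 were named after their values were seen.

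In the APP/PS1 cortex, which shares no array with this comparison, the list's median was -0.19 with 0 higher and 1 lower, and Ifit1 differed by -0.61 (unadjusted p = 0.034 in limma). In the hippocampus of the same WT mice the median was 0.19, with 0 higher and 0 lower of 16. The difference of the Ifit1 effects between the genotypes had an unadjusted p of 0.00545 and did not pass adjustment in limma.

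**Figure D3:**
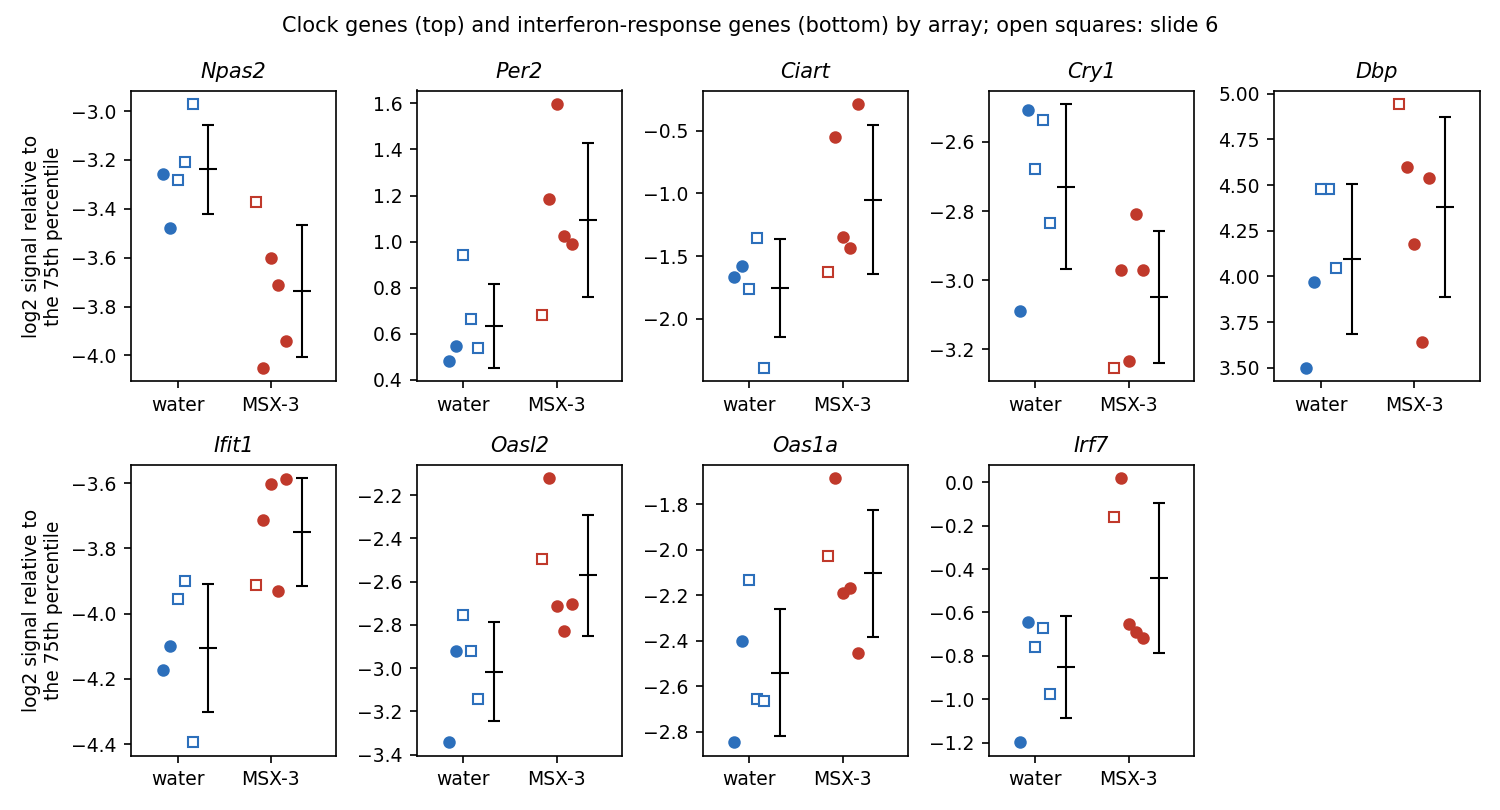
Log2 signal relative to the array's 75th percentile for 5 clock genes (top) and 4 interferon-response genes (bottom), 1 point per array, filled circles off slide 6 and open squares on it, with mean ± SD beside each group. The single MSX-3 square, mouse 282, lies in the H2O range for Per2 (0.68) and outside it for Irf7 (-0.16).

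Oligodendrocytes wrap axons in myelin. Of 19 measured genes of these cells and their precursors, 3 were higher and none lower, with a median of 0.07, and the same counts held with the block, with a median of 0.15. Mobp, a myelin protein gene, measured 2.34, 1.91, 2.98, 2.83 and 2.91 in MSX-3 mice and 2.14, 2.04, 1.75, 1.39 and 2.45 in H2O mice. Mice 282, 303 and 304 lay above all H2O mice. The difference was 0.64 ± 0.24 (SE) and 0.87 with the block, and a second Mobp probe gave 0.12. Gpr17, a receptor of maturing precursors, measured 2.01, 1.42, 1.96, 2.05 and 2.03 against 1.37, 1.58, 1.64, 1.42 and 1.62. All MSX-3 mice but 77 lay above the H2O mice. The difference was 0.37 ± 0.13 (SE), and 0.43 (unadjusted p = 0.0082 in limma) in the hippocampus of the same mice. Cldn11, a myelin tight-junction gene named after its values were seen, differed by 0.30 ± 0.13 (SE), 0.33 with the block. The myelin gene Mbp had -0.13 (95% interval -0.52 to 0.25) at its brightest probe and 0.04 and 0.33 at the others. The list's summed linear signal ran from 150.1 to 192.7 in MSX-3 arrays and from 138.7 to 205.6 in H2O arrays, and all 19 genes were well above background on every array.

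For microglia, none of 19 resting-state genes was higher or lower (median -0.03). Csf1r, the receptor that microglia need to survive, differed by 0.11 (95% interval -0.07 to 0.29), and C1qc of the complement by 0.11 (-0.07 to 0.30). Of 21 genes that microglia take on around plaques, 2 were lower and none higher (median 0.02). Lpl, lipoprotein lipase, measured -1.51, -1.51, -1.32, -1.38 and -1.66 in MSX-3 mice and -1.14, -0.86, -1.01, -1.02 and -1.25 in H2O mice, without overlap. The difference was -0.42 ± 0.10 (SE), -0.41 with the block and -0.37 or lower whichever mouse was left out, and its other two probes gave -0.63 and -0.35. Neurons and vascular cells also express Lpl. Axl, a receptor for dying cells, measured 2.12, 2.15, 2.32, 2.03 and 1.89 against 2.49, 2.38, 2.30, 2.27 and 2.47, with MSX-3 mouse 282 in the H2O range, and differed by -0.28 ± 0.10 (SE), -0.20 with the block.

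Of 16 general astrocyte genes 1 was lower, Sox9, a transcription factor of astrocytes, with -0.39 ± 0.16 (SE), -0.24 without MSX-3 mouse 304 and -0.16 for its other probe. With the block it had -0.33 and lost its threshold. Fgfr3 followed by p with -0.24 (95% interval -0.54 to 0.07), and -0.01 for its other probe. Of 15 genes of reactive astrocytes 2 were higher and none lower (median 0.14), and 3 were higher with the block. Lcn2, an acute-phase protein, measured -3.48, -1.99, -0.45, -3.33 and -2.78 in MSX-3 mice and -3.37, -4.25, -3.52, -3.70 and -3.31 in H2O mice. Mouse 282 stood far above the rest and mice 49 and 303 lay in the H2O range. The difference was 1.23 ± 0.50 (SE), and from 0.74 to 1.49 over the fits that leave out 1 mouse, and 1.61 with the block. C3 of the complement differed by 0.50 ± 0.23 (SE), by 0.26 with the block, where it lost its threshold, and its other probe gave -0.0012.

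Blood markers, varied widely between the mice. Of 11 measured, 3 were higher and none lower, and the median was 0.41. It was 0.24, 0.25 and 0.25 without MSX-3 mice 77, 282 and 303, and 0.77 and 0.66 without MSX-3 mouse 304 and H2O mouse 308. With the slide as a random block it was 0.63. With the slide as a fixed block it was 1.16, a value that rests on MSX-3 mouse 282 against the H2O mice of slide 6. The 3 were the globin genes Hbb-bt, Hba-a2 and Hba-a1, the last named after its values were seen, and the near-identical Hba-a1 and Hba-a2 cannot be told apart by hybridization. Hbb-bt measured 0.92, 2.07, 3.36, 1.44 and 2.62 in MSX-3 mice and 1.12, 0.21, 2.32, -0.34 and -0.28 in H2O mice. The highest were MSX-3 mice 282 and 304 and H2O mouse 258. The difference was 1.48 ± 0.57 (SE), and 3.01 on slide 6 against 0.77 off it. Hba-a2 differed by 1.32 ± 0.54 (SE). In the hippocampus of the same mice Hbb-bt differed by 1.68 (unadjusted p = 0.036 in limma). The summed linear signal of the list ran from 25.5 to 109.1 in MSX-3 arrays, with a median of 49.4, and from 14.5 to 57.0 in H2O arrays, with a median of 18.6. The ranges overlapped. Mouse 282 had both the highest globin and the highest Lcn2 signal, and the part of blood RNA in the higher Lcn2 and interferon values, which blood cells also express, was not tested.

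Tissue bordering the cortex varied between the arrays. Of 9 measured choroid plexus and ependyma genes, 2 were higher and none lower. Foxj1, which directs motile cilia, differed by 0.52 ± 0.19 (SE), and by 0.28 with the block. Prlr, the prolactin receptor of choroid plexus, measured -3.57, -3.64, -3.92, -3.82 and -2.17 against -3.92, -4.57, -3.50, -4.24 and -4.84. Mouse 304 set the difference of 0.79, which was 0.48 without that mouse and 0.55 with the block, where it lost its threshold, and a second Prlr probe gave -0.09. The list's summed linear signal ran from 0.694 to 1.36 on slide 6 and from 1.64 to 3.77 on the other slides, without overlap, against 1.29 to 3.19 in MSX-3 and 0.694 to 3.77 in H2O arrays. Choroid signal therefore followed the slide. Of 17 endothelial and pericyte genes and 13 meningeal genes none was higher or lower (medians 0.07 and 0.07), led by Tagln with 0.32 (95% interval -0.05 to 0.70), Kcnj8 with -0.19 (-0.44 to 0.07), Slc22a6 with 0.27 (-0.02 to 0.57) and Mgp with 0.35 (-0.11 to 0.81). With the block, 1 endothelial or pericyte gene and 1 meningeal gene were higher.

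The medians of the neuronal lists lay near 0. Of 19 cortical layer genes none was higher or lower at its brightest probe (median 0.02). Other probes of Cux1 gave -0.31, -0.32 and -0.44 (unadjusted p = 0.025, 0.054 and 0.032 in limma). Lamp5, of upper-layer neurons and interneurons, led with 0.26 (95% interval -0.02 to 0.53), and Scnn1a, of layer 4, had 0.58 (-0.08 to 1.23), which was 0.21 with the block and -0.02 for its other probe. Of 28 GABA genes 1 was higher (median -0.03), Gabra5, a GABA-A receptor subunit, with 0.24 ± 0.11 (SE) and -0.06 for a second probe, and its threshold was lost with the block. Gabra3 had 0.21 (-0.03 to 0.44), and -0.06 for its other probe. Of 29 presynaptic genes none was higher or lower (median -0.05), led by Cplx2 with -0.49 (-1.01 to 0.03) and Syt1 with -0.27 (-0.57 to 0.03). The summed linear signal of this list ran from 889.0 to 951.4 on slide 6 and from 733.2 to 884.6 elsewhere, without overlap. Of 29 postsynaptic scaffold genes 2 were lower and none higher (median -0.05). Camk2a, the kinase of synaptic plasticity, differed by -0.29 ± 0.12 (SE), by -0.11 at its other probe and by -0.19 with the block, where it lost its threshold.

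Activity and growth-factor genes gave few differences. Of 24 immediate early genes 1 was lower, Btg2, with -0.56 ± 0.23 (SE), -0.43 for its other probe and -0.43 with the block, where it lost its threshold, and Jun followed with -0.46 (95% interval -0.98 to 0.07). With the block, 1 other gene of this list was lower. Fos, the usual marker of recent firing, differed by -0.03 (-0.87 to 0.80) and Arc by -0.07 (-0.99 to 0.84), intervals that reach far to both sides of 0. Of 14 neurotrophin genes 1 was higher and 1 lower. With slide 6 as a block, none was. Ntrk2, the receptor of BDNF, differed by -0.29 ± 0.13 (SE), by -0.15 with the block, and its other probe gave 0.08.

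The remaining lists were as follows. Of 17 glucocorticoid-response genes 1 was higher, Fkbp5, a cochaperone of the glucocorticoid receptor, with 0.41 ± 0.16 (SE), 0.25 with the block, where it lost its threshold, and -0.02 for its other probe, and Tsc22d3 had 0.22 (95% interval -0.03 to 0.47). Of 25 heat shock and unfolded protein genes 1 was higher (median 0.11), Herpud1, of protein quality control in the endoplasmic reticulum, with 0.33 ± 0.10 (SE), 0.25 with the block and 0.09 for its other probe, and Hspb1 had 0.42 (-0.04 to 0.88). Of 23 amyloid-processing genes 1 was higher (median -0.0090), Sorl1, a sorting receptor for APP, with 0.36 ± 0.11 (SE) and 0.24 with the block, and Apba2 had -0.18 (-0.37 to 0.01). Of 11 xenobiotic genes 1 was higher, Cyp1b1, with 0.32 ± 0.14 (SE), which lost its threshold with the block at 0.31, and Ahrr had -0.20 (-0.42 to 0.03). Of 13 hippocampal markers 1 was higher, Lct, with 0.37 ± 0.16 (SE), and Zbtb20 had -0.20 (-0.43 to 0.03). Of 17 thalamic and hypothalamic markers 1 was higher, Pmch, with 0.49 ± 0.20 (SE), which lost its threshold with the block at 0.45, and Trh had -0.26 (-0.63 to 0.11). None of 43 respiratory chain genes (median -0.0034) and none of 33 ribosomal protein genes (median -0.07) was higher or lower. Atp5b led the former with 0.12 (-0.06 to 0.30) and Atp5a1 followed with 0.11 (-0.06 to 0.29), and Rplp0 and Rpl14 led the latter with 0.19 (-0.04 to 0.42) and -0.19 (-0.43 to 0.05).

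**Figure D4:**
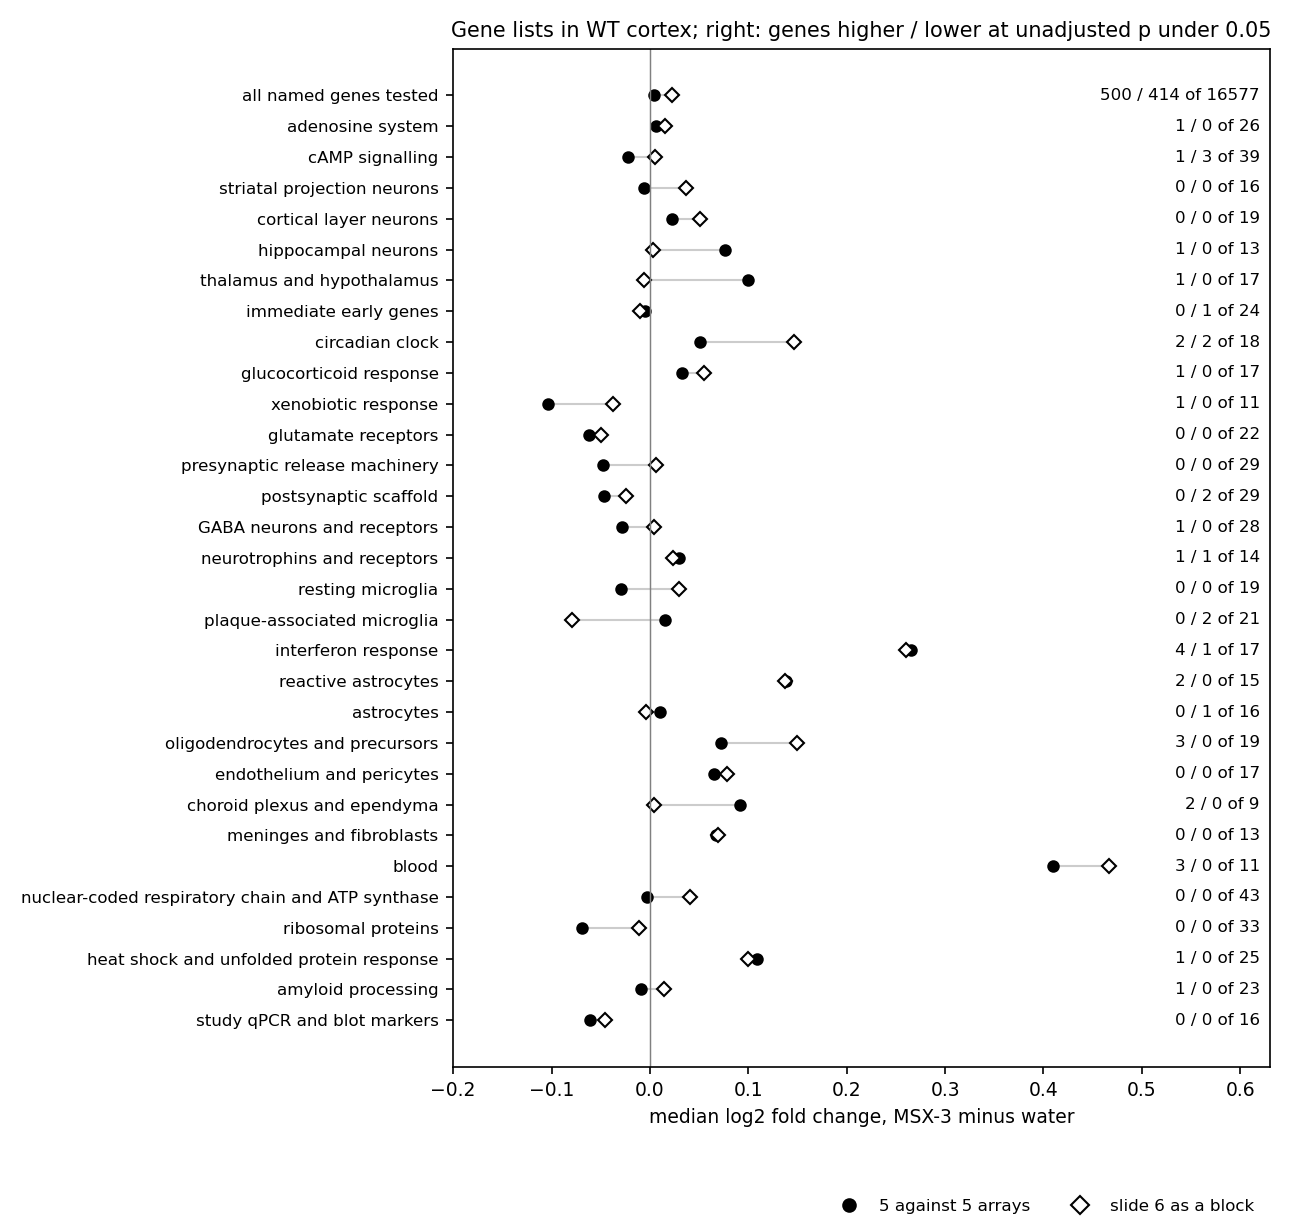
Median log2 difference, MSX-3 minus H2O, of the measured genes of each of 30 lists and of all 16577 named genes, filled for 5 against 5 arrays and open with slide 6 as a block, with the counts higher and lower at an unadjusted p under 0.05 on the right. Blood (0.41) and interferon response (0.27) have the highest medians, and the medians of most neuronal lists lie close to that of all genes (0.0045).

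Genes without overlap between the groups were few. Of 16553 genes with a value on every array, 111 (0.671%) had no overlap between the 5 MSX-3 and the 5 H2O mice. Of these, 76 were well above background on all 10 arrays with an unadjusted p under 0.05, 37 higher and 39 lower. They were chosen by this contrast, so their values are a description and no support for a difference. The largest higher one was Tspear, which encodes a secreted protein with laminin G and EAR repeats. It measured -1.33, -1.82, -2.00, -1.30 and -0.77 in MSX-3 mice and -2.53, -2.49, -2.65, -2.43 and -2.83 in H2O mice. The nearest pair, mice 282 and 308, lay apart by more than the whole range of the H2O mice. The difference was 1.14 ± 0.21 (SE), a 2.21-fold higher level, and 1.01 with the block. In the APP/PS1 cortex Tspear differed by -0.57 and in the hippocampus of the same WT mice by 0.31, and the difference between the genotypes had an unadjusted p of 0.00032 (adjusted p = 0.753 in limma).

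Esrp1, an epithelial splicing regulator, measured -2.74, -2.95, -2.65, -2.76 and -2.21 against -3.35, -3.74, -2.96, -3.38 and -3.33, a gap set by H2O mouse 258, and differed by 0.69 ± 0.17 (SE), 0.62 with the block. Mgst1, a microsomal glutathione transferase, measured -0.47, -0.67, -0.55, -0.18 and -0.38 against -0.99, -1.13, -0.84, -0.81 and -1.35, and differed by 0.57 ± 0.13 (SE), with 0.47 with the block and 0.39 for its other probe. H2-Q5, of the class I antigen-presenting family whose members resemble each other, differed by 0.59, and the interferon-inducible families of Oas1f and Trim34a by 0.48 and 0.45. Hydin, of the central pair of motile cilia, differed by 0.61, Sntb1, a syntrophin, by 0.63, and Gm17778 and the olfactory receptor gene Olfr722 by 0.51 and 0.44.

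The largest lower ones were Col6a4 and Cysrt1. Col6a4, a collagen VI chain, measured -3.32, -3.52, -2.83, -4.23 and -3.68 in MSX-3 mice and -2.80, -2.30, -2.76, -2.76 and -2.73 in H2O mice, so that mouse 282 came close to H2O mouse 56. The difference was -0.85 ± 0.22 (SE), -0.68 with the block. Cysrt1 differed by -0.73, with MSX-3 mouse 282 and H2O mouse 308 both at -3.45. Fap, a membrane serine protease, was highest among MSX-3 mice at -0.37 and lowest among H2O mice at -0.28, and differed by -0.55 ± 0.15 (SE), with -0.10 for its other probe and -0.92 in the hippocampus of the same mice. Lpar4, a receptor for lysophosphatidic acid, differed by -0.58, and Lca5, of the ciliary protein lebercilin, by -0.49. Zfp641, a zinc finger gene, differed by -0.56, by -0.31 without MSX-3 mouse 304, and lost its threshold with the block. D730045A05Rik, E030024N20Rik, C030013G03Rik and Gm19531 differed by -0.63, -0.58, -0.52 and -0.48.

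The smallest unadjusted p among named genes were those of Gm31872 (0.00016), Klf11 (0.00017), Tspear (0.00021), Sgo2b (0.00027) and Nrl (0.0004), each with an adjusted p of 0.569 in limma. Klf11, a Kruppel-like repressor, measured -5.55, -5.00, -4.83, -5.04 and -5.22 in MSX-3 mice and -4.43, -4.23, -4.43, -4.49 and -4.34 in H2O mice. The groups lay clearly apart, but the probe was well above background on 3 of 5 MSX-3 arrays. The difference was -0.74 ± 0.13 (SE), -0.65 with the block, and 0.05 in the APP/PS1 cortex. Gm31872 was well above background on 1 of 5 MSX-3 arrays, so no difference is given for it. Sgo2b, a shugoshin, and Nrl, a transcription factor known from photoreceptors, were well above background on 4 MSX-3 arrays each and differed by -0.82 and -0.60.

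No probe showed a difference of the MSX-3 effect between WT and APP/PS1 cortex. Of 37680 probes, 0 (0%) were called for this interaction in limma, 1756 (4.66%) had an unadjusted p under 0.05, and the smallest adjusted p was 0.753. Of the 3255 probes at an unadjusted p under 0.05 in WT cortex, 223 also had one in the APP/PS1 cortex, 188 with the same sign. They were 6.85% of the WT probes and 10.3% of the 2164 of the APP/PS1 cortex. Over all probes, 5.74% had such a p in the APP/PS1 cortex, and 53.7% had the same sign in both genotypes. Across all probes, which are not independent replicates, the differences of the genotypes had a Pearson r of 0.02. Between cortex and hippocampus of the same WT mice, 0 of 36743 probes (0%) were called for an interaction, 1820 (4.95%) had an unadjusted p under 0.05, and the smallest adjusted p was 0.759. Taking cortex minus hippocampus within each mouse, 0 were called and 1492 (4.06%) had an unadjusted p under 0.05. Of 3109 probes at this threshold in WT cortex, 456 (14.7%) also reached it in the hippocampus of these mice, 436 with the same sign. Over all 36743 probes, 2580 reached it in hippocampus, and 50.8% had the same sign in both tissues. The differences of the tissues had a Pearson r of -0.03 over these probes, which are not independent replicates.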

How the data were processed

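Processed signal intensities were deposited by the authors, made with Agilent Feature Extraction 10.7.3.1 (per the labels), which subtracts background and removes spatial trends, without normalization between arrays. The other deposited columns used here were spot flags and, for the normexp alternative, median foreground and background intensities. The genome build is not given in the sources used here. Control and outlier spots were left out, each array's 75th percentile was subtracted on the log2 scale, and spots of 1 probe were averaged. A probe was kept (37680 were) if 4 or more arrays of some cortex group showed it clear of background by the scanner's flag. Names came from RefSeq through accessions (32994 probes, 22911 genes). Groups were compared with limma 3.58.1 (R 4.3.3; lmFit, eBayes, Benjamini-Hochberg). The arrays of MSX-3 mouse 298 and H2O mouse 310, whose grid failed, were left out. A gene is represented by its kept probe with the highest mean. Named are adenosine receptors, the study's markers, the 10 largest differences without overlap in each direction, the 5 smallest p, and 2 genes per list by p, of which some are not reported here. The members and the 30 lists were chosen with earlier results of these data known. Marker list levels are given as ranges, without the test first planned. The procedure was tested on simulated data with independent noise and no slide effect, so that test does not cover the slide difference seen here. Tissues were paired by mouse, and after removal of group means the cortex and hippocampus of a mouse correlated between -0.55 and 0.40. The number of arrays limits the precision. Per the methods, cages were separated by genotype and MSX-3 intake was measured per cage. Which of these mice shared a cage is not known, so cage and treatment cannot be told apart. Alternatives concerned normalization, background, filters, weights, slide, scan day, failed arrays and leaving out mice.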

Additional observations from a re-analysis of the deposited data

Results flagged for a closer look

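In 15 of 198 groups of 5 values tested, 1 array lay apart from the other 4 by a gap of more than 0.71 of the group's range, and chance alone flags about 1 group in 20 at this limit. The array of MSX-3 mouse 304 accounted for 6 of these, being the lowest for Grin2a (gap over range 0.878), Zfp641 (0.819), Trh (0.744), Jun (0.768) and Sox9 (0.925) and the highest for Prlr (0.803). The array of MSX-3 mouse 282, the only one of its group on slide 6, was the highest for Dlg4 (0.84), Gria1 (0.761) and Gria2 (0.741). H2O mouse 258 was the lowest for Grin2b (0.833) and the highest for Gabra5 (0.725). Single arrays stood out for Col6a4 (H2O mouse 71, 0.862), Cysrt1 (H2O mouse 308, 0.723), E030024N20Rik (MSX-3 mouse 303, 0.78) and Gpr17 (MSX-3 mouse 77, 0.856).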

How the results depend on the processing

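The count of 0 called probes held under all alternatives run except array weights (3030). The probes at an unadjusted p under 0.05, 3255 as reported, became 96 with all 12 WT cortex arrays, 13502 with array weights, 1913 with the slide as a random block, 1950 with the slide as a fixed block and 1741 on the arrays off slide 6. Leaving out 1 mouse gave 1989 to 6948, with 6948 without MSX-3 mouse 282 and 6907 without H2O mouse 258, but 2133 and 2015 without MSX-3 mice 49 and 303 and 2023, 2126 and 1989 without H2O mice 56, 71 and 318. With slide 6 against the others as a block the count was 2269, and on the arrays of scan day 1 or 2 alone 2198 or 2448. On scan day 1, too, the groups share no slide. The interactions with genotype and with tissue kept 0 under all alternatives run. The replicate block, cortex minus hippocampus within each mouse, gave 0 for the tissue interaction, the one result that has pairs. No cortex groups share mouse numbers. Of 101 genes chosen by the naming rule, 19 passed with array weights and none under the other alternatives. Signs changed for 5 with slide 6 as a block and for 13 with the slide as a fixed block, which compares 1 MSX-3 with 3 H2O arrays. Of 30 list medians, 13 changed sign on scan day 1 alone, 12 with the slide as a fixed block, 10 with slide 6 as a block and 2 with quantile normalization. No scaling moved the median over all probes beyond -0.032. The cause of these changes was not tested. The failed arrays had 11.4% and 15.8% of spots well above background, against 62.7% or more on the arrays used.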
